A study of Mus musculus with 8 samples.

Results

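The genes described here are 33 listed genes of the interferon response and of antigen processing, measured in brown fat, the adipose tissue that burns lipid to make heat. Each was read from the brightest probe set (a group of array probes summarised to 1 value) that carries its symbol alone. Of the 33 genes, 29 had such a probe set, and 26 of these were bright enough to be tested, out of 22180 genes named and 14327 tested in all. Oas1a, Gbp2 and Cd74 were found on probe sets that also carry another symbol, and Ifi44 was matched to none. The study hybridised 8 arrays, 1 male C57BL/6J mouse each, with 200 ng of total RNA. By the labels 3 mice were wild type (WT) and 5 had Abhd15 knocked out (Abhd15 KO). Both groups were fed normal chow, were fasted overnight at 14 weeks of age and were refed for 1 h before harvest. The sources used here do not say how Abhd15 was deleted or in which cells. ABHD15 belongs to the alpha/beta hydrolase proteins and is made mainly by fat cells. The comparison asks which transcripts differ in its absence. Arrays labelled Abhd15 KO are called KO-labelled arrays below, and KO replicates 1 to 5 are their numbers in the labels.

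Cells that sense viral or misplaced nucleic acid, through the cytosolic receptors encoded by Ifih1 and Ddx58 among others, secrete type I interferon. Its receptor activates a complex that includes STAT2 and IRF9 and binds the interferon-stimulated response element (ISRE) before many target genes. Interferon gamma acts on a different sequence, the gamma-activated site (GAS), and raises the genes that cut, transport and present peptides on MHC molecules. In fat, macrophages, endothelial cells and adipocytes all carry parts of this machinery.

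The promoter sequence of 7 stretches is shown because the genes behind them carry the patterns described further on. Isg15, Ifit1, Bst2 and B2m hold an ISRE match and varied with the other members across mice, Ifit3 holds such matches and varied differently, Psmb8 had the lowest p of the 26, and Tap1 and Psmb9 start from opposite strands of 1 short stretch. The sequences are RefSeq's for build GRCm38.p6, 5′ to 3′ on the strand of the gene, and each ends at the base before the annotated start. Capitals mark matches to the ISRE letters GAAANNGAAA or the GAS letters TTCNNNGAA, on both strands. The stretches lie at chr4:156200819-156201068 (minus strand) for Isg15, chr19:34640639-34640888 (plus) for Ifit1, chr8:71537473-71537722 (minus) for Bst2, chr2:122147437-122147686 (plus) for B2m, chr19:34583279-34583528 (plus) for Ifit3 and chr17:34197945-34198194 (plus) for Psmb8. The whole stretch of 225 bases between the starts of Psmb9 (minus strand) and Tap1 (plus strand) is chr17:34187331-34187555, given on the plus strand.
Isg15: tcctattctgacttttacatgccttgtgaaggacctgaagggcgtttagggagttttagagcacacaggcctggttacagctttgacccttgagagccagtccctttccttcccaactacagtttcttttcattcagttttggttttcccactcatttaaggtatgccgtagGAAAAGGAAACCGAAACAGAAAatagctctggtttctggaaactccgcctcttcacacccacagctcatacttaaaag
Ifit1: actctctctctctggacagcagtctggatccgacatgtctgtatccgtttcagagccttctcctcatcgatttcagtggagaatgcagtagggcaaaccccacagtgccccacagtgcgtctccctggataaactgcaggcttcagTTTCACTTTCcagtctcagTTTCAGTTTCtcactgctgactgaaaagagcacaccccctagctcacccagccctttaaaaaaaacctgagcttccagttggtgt
Bst2: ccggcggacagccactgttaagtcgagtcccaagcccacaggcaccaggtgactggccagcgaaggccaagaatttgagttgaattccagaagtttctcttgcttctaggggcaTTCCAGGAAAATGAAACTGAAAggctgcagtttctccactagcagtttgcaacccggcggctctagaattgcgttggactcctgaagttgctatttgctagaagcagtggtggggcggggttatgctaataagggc
B2m: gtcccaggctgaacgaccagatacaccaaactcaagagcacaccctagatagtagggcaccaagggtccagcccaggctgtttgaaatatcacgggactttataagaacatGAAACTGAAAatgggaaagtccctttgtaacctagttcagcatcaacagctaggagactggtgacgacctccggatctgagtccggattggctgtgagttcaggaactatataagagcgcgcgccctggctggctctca
Ifit3: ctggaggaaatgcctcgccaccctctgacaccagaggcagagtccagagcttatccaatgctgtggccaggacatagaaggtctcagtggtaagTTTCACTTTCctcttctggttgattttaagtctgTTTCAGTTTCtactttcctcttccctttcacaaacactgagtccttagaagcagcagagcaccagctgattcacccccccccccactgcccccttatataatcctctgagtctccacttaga
Psmb8: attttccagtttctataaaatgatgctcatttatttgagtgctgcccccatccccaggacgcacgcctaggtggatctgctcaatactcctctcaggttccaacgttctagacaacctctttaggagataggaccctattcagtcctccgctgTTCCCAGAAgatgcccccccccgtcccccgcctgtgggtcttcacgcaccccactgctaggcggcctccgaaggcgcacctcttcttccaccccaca
Tap1 and Psmb9: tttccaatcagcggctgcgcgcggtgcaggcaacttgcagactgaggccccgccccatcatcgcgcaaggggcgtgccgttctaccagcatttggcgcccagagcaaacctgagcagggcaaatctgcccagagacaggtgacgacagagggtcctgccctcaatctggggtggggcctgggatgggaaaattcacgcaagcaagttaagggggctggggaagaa
Isg15 holds 3 ISRE matches that overlap one another, the nearest beginning 66 bases before its start. Ifit1 and Ifit3 hold 2 each, those of Ifit1 beginning 104 and 85 bases before the start. In Bst2 a GAS match overlaps 1 of 2 overlapping ISRE matches. Psmb8 holds a GAS match 97 bases before its start and no ISRE match, and the stretch between Tap1 and Psmb9 holds neither set of letters.

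Of the 33 listed genes, 25 were found in the promoter table, with 29 windows of 250 bases before to 50 bases after a start. At least 1 ISRE match lay in a window of 14 of the 25 genes, against 3.99% of all 27025 genes in the table. By window it was 14 of 29, against 3.44% of all 32851. GAS matches were found in 5 of the 25 genes, against 9.55% of all genes. The genes with an ISRE match included the RNA sensors Ifih1 and Ddx58, whose matches begin after the start, and Stat2, Rsad2, Gbp3 and Cxcl10. A match is a run of letters and was not tested as a binding site. Oas2, Mx1, Mx2, Usp18, Zbp1, Rtp4, Cd74 and Ciita are not in the table.

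All values below are on the log2 scale as deposited, and differences are KO-labelled minus WT arrays. Levels of different genes are not set against each other, because probes differ in brightness. A probe set counted as dim below 2.67 log2, the 95th percentile of the means of 1400 probe sets of smell and pheromone receptor genes, taken to be silent in fat. Abhd15 itself has 2 probe sets, and only the brighter is given here. It read 6.01 ± 0.19 in WT (SD, n = 3) and 6.12 ± 0.27 in the KO-labelled arrays (SD, n = 5), so every direction rests on the labels. A probe set outside the deleted part checks nothing, and which part that is was not given. All 9 brown adipocyte markers looked at were above the dim limit, among them Ucp1, the uncoupling protein (12.51 to 12.89 in the 8 arrays). WT replicate 2 and KO replicate 1 stand apart from the other 6 arrays in Angptl8, a secreted regulator of lipoprotein lipase (7.95 and 7.90 against 10.42 to 10.81).

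No interferon or antigen processing gene of the 26 passed the test between the labels. With limma and Benjamini-Hochberg adjustment over all 14327 genes, 0 members passed an adjusted p of 0.05 (smallest 0.9996), where 0% of all genes passed. The proteasome subunit gene Psmb8 was the only member with an unadjusted p under 0.05, which is 1 of 26 against 4.22% of all genes tested (1.91% on the lower side). On the higher side 0 members had one, against 2.30% of all genes. It was also the only member whose groups did not overlap, against 2.95% of all genes in either direction and 1.29% on the lower side. These shares lie near the background, so none is a result about the members. The members' differences had a median of -0.03, beside 0.01 for all genes tested, and ran from -0.58 for Psmb8 to 0.62 for Oasl2. Oasl2 was above the dim limit in 1 of 3 WT arrays and in all 5 KO-labelled arrays. Means were higher in the KO-labelled arrays for 12 members and lower for 14, where 51.4% of all genes were higher. The 95% confidence intervals had a median half-width of 0.44 log2 for the members and 0.37 for all genes. Whole tissue was measured, and fewer cells of a type cannot be told apart from less RNA per cell.

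**Figure D1:**
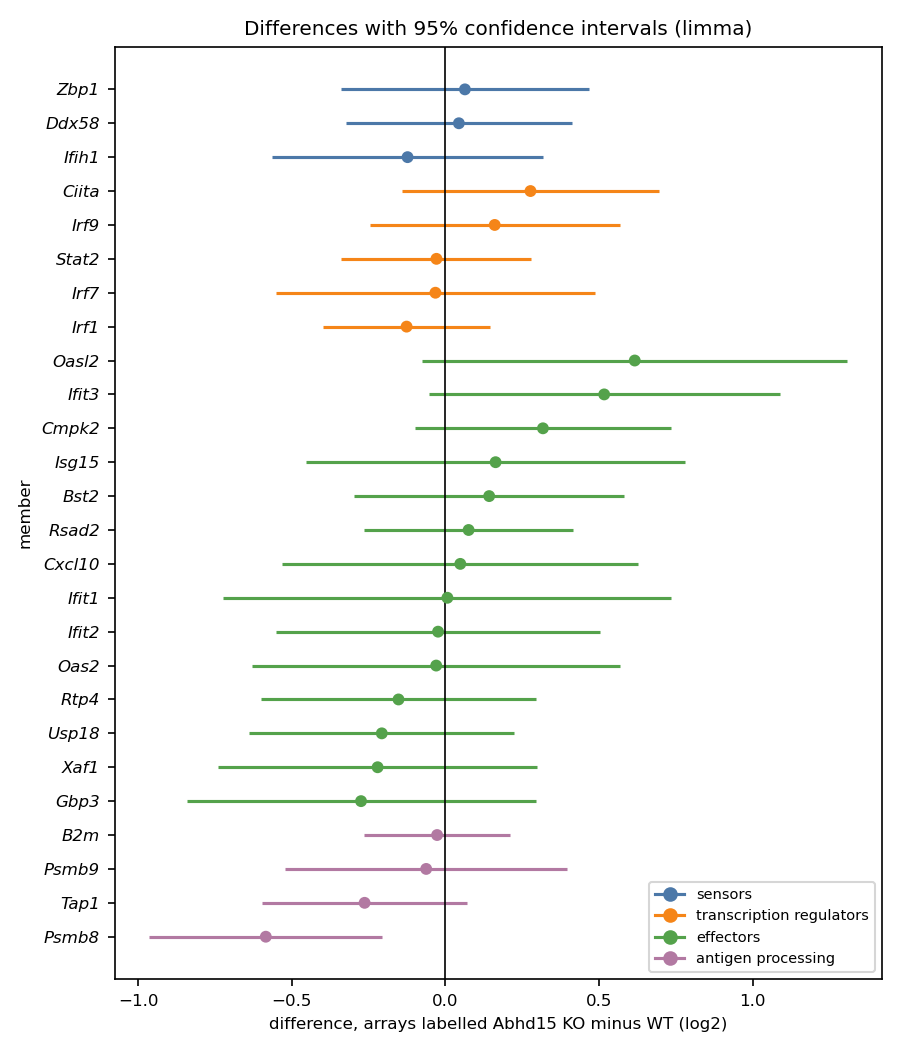
Points are log2 differences of the 26 tested members (KO-labelled minus WT arrays) and lines their 95% confidence intervals from limma, coloured by role. Psmb8, at -0.58, is the only member whose interval (-0.96 to -0.21) leaves out 0, and none passed the adjusted threshold.

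Among the sensors of nucleic acid the groups overlapped throughout. Ifih1, which encodes MDA5, a receptor for long double-stranded RNA, read 5.80 ± 0.31 in WT and 5.68 ± 0.29 in the KO-labelled arrays (difference -0.12, 95% confidence interval -0.56 to 0.32). Ddx58, which encodes RIG-I, a receptor for RNA with a 5′ triphosphate, read 5.22 ± 0.36 and 5.27 ± 0.12 (0.04, -0.32 to 0.41). The lowest Ddx58 value of the 8 was that of WT replicate 1 (4.82), and the other 7 lay between 5.09 and 5.50. Zbp1, a sensor of Z-form nucleic acid that can start necroptosis, read 3.75 ± 0.10 and 3.81 ± 0.31 (0.06, -0.34 to 0.47). Its highest values were those of KO replicates 4 and 5 (4.10 and 4.20).

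None of the 5 transcription regulators passed the test, and the groups overlapped in each. Irf1, a factor that interferon gamma induces, had a narrow range of 5.36 to 5.72 over all 8 arrays (difference -0.13, -0.40 to 0.14). Irf7, the factor that amplifies type I interferon production, ranged from 4.00 in KO replicate 4 to 5.01 in KO replicate 1, with all WT values inside that range (-0.03, -0.55 to 0.49). Irf9 and Stat2, partners in the complex that binds the ISRE, differed by 0.16 (-0.25 to 0.57) and -0.03 (-0.34 to 0.28). Ciita, the coactivator of MHC class II genes, read 3.09, 3.80 and 3.61 in the 3 WT arrays in replicate order. In the KO-labelled arrays, in replicate order, Ciita read 3.99, 4.03, 3.57, 3.62 and 3.68. The groups overlapped, with WT replicate 1 below all others (0.28, -0.14 to 0.69). Without WT replicate 1 the Ciita difference was 0.07, and without WT replicate 2 it was 0.43.

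The effectors, 14 of them tested, held 5 of the 6 widest ranges between mice, and 0 passed the adjusted threshold. Their median difference was 0.03, with 8 higher and 6 lower in the KO-labelled arrays. Oasl2, an oligoadenylate synthetase-like gene that interferon induces, read 2.67, 3.87 and 2.43 in the 3 WT arrays in replicate order. The 5 arrays labelled Abhd15 KO read 4.05, 3.69, 3.35, 3.55 and 3.39 for Oasl2. Only 1 of 3 WT arrays, replicate 2, lay above the dim limit (replicate 1 was just under it), and that array lay within the range of the other group. The difference was 0.62 (-0.07 to 1.31), with an adjusted p of 0.9996 by limma. Without WT replicate 2 the Oasl2 difference was 1.06 (limma adjusted p = 0.9999), while leaving out WT replicate 3 gave 0.34 (0.9993). Without WT replicate 2 and KO replicate 1 together it was 0.95. With WT replicate 2 left out, both remaining WT values lie under the dim limit, so the size of the 1.06 and the 0.95 is uncertain.

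Ifit3, one of a family of proteins that bind foreign RNA, read 3.51, 3.29 and 3.43 in the 3 WT arrays in replicate order. It read 4.07, 4.57, 3.49, 4.13 and 3.38 in the KO-labelled arrays, in replicate order. KO replicates 1, 2 and 4 lay above all WT arrays and replicates 3 and 5 among them (0.52, -0.05 to 1.09). Its relatives did not share that order. Ifit1 read 3.66, 4.77 and 4.07 in WT and 4.28, 3.43, 4.56, 4.71 and 3.91 in the KO-labelled arrays (0.01, -0.72 to 0.74). KO replicate 2 was thus the highest of 8 for Ifit3 and the lowest for Ifit1. Ifit2 differed by -0.02 (-0.55 to 0.50) and ranged from 2.75 to 3.56, close to the dim limit. The mouse Ifit genes include near-identical copies, and cross-hybridisation between them was not tested.

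Cmpk2, a nucleotide kinase gene that lies beside Rsad2, read 4.71, 5.56 and 5.07 in the 3 WT arrays in replicate order and 5.45, 5.25, 5.31, 5.58 and 5.57 in the KO-labelled arrays. WT replicates 1 and 3 lay below all 5, and WT replicate 2 lay among them (0.32, -0.10 to 0.73). Without WT replicate 2 the Cmpk2 difference was 0.54 (limma adjusted p = 0.9999), while leaving out WT replicate 1 gave 0.12 (0.977). Rsad2, which encodes viperin, an enzyme that makes a chain-terminating nucleotide, differed by 0.08 (-0.26 to 0.41). Isg15, a ubiquitin-like modifier, read 2.84, 3.77 and 3.28 in WT and 3.91, 2.80, 3.44, 3.77 and 3.39 in the KO-labelled arrays (0.16, -0.45 to 0.78). Usp18, the protease that removes ISG15 and dampens the interferon receptor, differed by -0.21 (-0.64 to 0.22). Oas2, a synthetase of the 2′,5′-linked oligoadenylates that activate an RNA-cutting enzyme, read 4.31, 5.19 and 3.90 in WT and 4.59, 4.12, 4.34, 4.74 and 4.39 in the KO-labelled arrays (-0.03, -0.63 to 0.57). The WT arrays of Oas2 included both the highest and the lowest of the 8.

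Gbp3, a guanylate-binding GTPase that interferon gamma induces, read 4.43, 4.65 and 5.06 in WT and 4.51, 4.22, 4.64, 4.99 and 3.83 in the KO-labelled arrays (-0.27, -0.84 to 0.29). Its lowest value was that of KO replicate 5. Bst2, which encodes tetherin, a membrane protein that holds back budding viruses, differed by 0.14 (-0.30 to 0.58), and Xaf1 by -0.22 (-0.74 to 0.30). Rtp4 differed by -0.15 (-0.60 to 0.29). Cxcl10, a chemokine that attracts T cells, ranged from 2.64 in WT replicate 2 to 3.80 in WT replicate 1 (0.05, -0.53 to 0.63). WT replicate 2 was thus the lowest of 8 for Cxcl10, just under the dim limit, and the highest for Oas2.

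The other listed effectors with a reading were not tested. Mx1, a GTPase that blocks influenza virus and is disrupted in most inbred mouse strains, read 1.62 to 2.04 and was above the dim limit in 0 of 8 arrays. Its relative Mx2 was above it in WT replicate 1 alone (3.15). Oas3 was above it in WT replicate 2 (2.84) and KO replicate 4 (3.02). The probe set shared by Oas1a and Oas1g read 1.53 to 1.95, all below the dim limit. The probe set shared by Gbp2 and Gbp2b read 4.91 to 6.23 in WT and 5.05 to 5.99 in the KO-labelled arrays, and it cannot be assigned to either gene.

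The 4 antigen processing genes tested all had a lower mean in the KO-labelled arrays, and none passed the test. Psmb8, which encodes the catalytic immunoproteasome subunit beta5i, read 5.86, 6.09 and 6.36 in the 3 WT arrays in replicate order. It read 5.61, 5.42, 5.84, 5.20 and 5.53 in the KO-labelled arrays, in replicate order. All 5 lay below all 3 WT arrays, the closest pair being KO replicate 3 and WT replicate 1. The means were 6.10 ± 0.25 (SD, n = 3) and 5.52 ± 0.24 (SD, n = 5), and the difference was -0.58 (-0.96 to -0.21), with a limma adjusted p of 0.9996. Over the 18 alternatives this difference ran from -0.71 to -0.46, and its adjusted p from 0.928 to 1.00 in limma. The other catalytic subunit on the list, Psmb9, did not share that separation. It read 3.81, 4.83 and 4.14 in WT and 4.18, 4.07, 4.31, 4.30 and 4.12 in the KO-labelled arrays (-0.06, -0.52 to 0.40), with WT replicates 1 and 2 as the lowest and the highest of the 8.

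Tap1, a subunit of the transporter that carries peptides into the endoplasmic reticulum, read 5.96, 6.01 and 6.24 in WT and 5.94, 5.65, 6.11, 5.77 and 5.57 in the KO-labelled arrays. The groups overlapped through KO replicate 3 (-0.26, -0.60 to 0.07). B2m, the constant light chain of MHC class I, had the narrowest range of the 26, from 11.43 to 11.66 (-0.03, -0.26 to 0.21). The median difference of the 4 genes was -0.16, and 51.4% of all genes were higher in the KO-labelled arrays. Averaged relative to each gene's mean over the 8 arrays, the 4 genes stood at 0.15 in WT and -0.09 in the KO-labelled arrays. B cell markers stood at 0.16 and -0.10, macrophage markers at 0.11 and -0.06 and skeletal muscle markers at 0.41 and -0.25. Conventional dendritic cell markers stood at 0.04 and -0.02. Endothelial markers (-0.08 and 0.05) and brown adipocyte markers (-0.05 and 0.03) went the other way. T and NK cell markers (-0.01 and 0.00) and plasmacytoid dendritic cell markers (-0.01 and 0.01) hardly differed. The part of any of these cells in the difference was not tested. The probe set shared by Cd74, the invariant chain of MHC class II, and a microRNA read 7.49 to 8.85 in WT and 7.54 to 8.67 in the KO-labelled arrays.

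**Figure D2:**
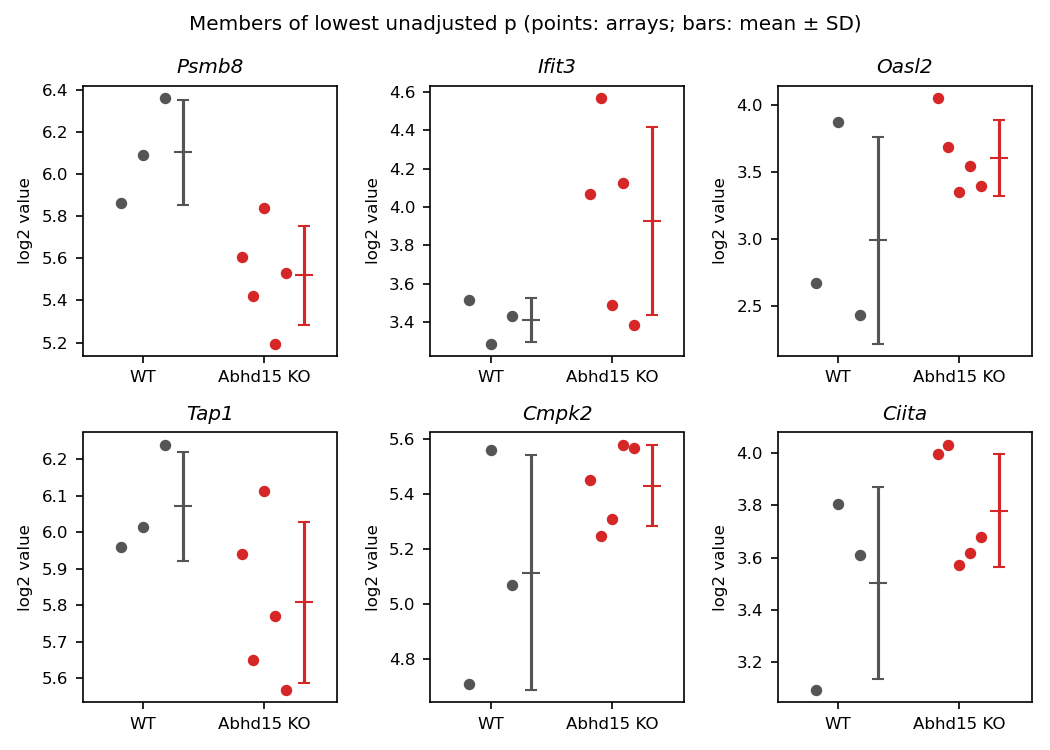
Points are log2 values per array and bars the mean ± SD per label for the 6 members of lowest unadjusted p (WT, n = 3, grey; KO-labelled, n = 5, red); the vertical axes differ. The groups separate in Psmb8 and overlap in Ifit3, Oasl2, Tap1, Cmpk2 and Ciita.

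In the mean over the 26 members, mice of the same label differed more than the labels did. Differences of both signs (12 higher, 14 lower) offset each other in that mean, and Psmb8 alone separated by label. Relative to each gene's mean over the 8 arrays, the mean of the 26 members was -0.20, 0.19 and -0.01 in the 3 WT arrays in replicate order. In the KO-labelled arrays, in replicate order, it was 0.16, -0.13, 0.06, 0.01 and -0.08. The group means were -0.01 ± 0.19 (SD, n = 3) and 0.00 ± 0.12 (SD, n = 5). The highest arrays were WT replicate 2 and KO replicate 1, and the lowest WT replicate 1 and KO replicate 2. In WT replicate 2, 22 of 26 members lay above their own mean, where 50.3% of all genes did. KO replicate 1 had 19 members above, where 53.7% of all genes did. WT replicate 1 had 6 above, against 49.4% of all genes, and KO replicate 2 had 5, against 50.8%. The residual SD within groups had a median of 0.30 log2 over the members and 0.23 over all genes.

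**Figure D3:**
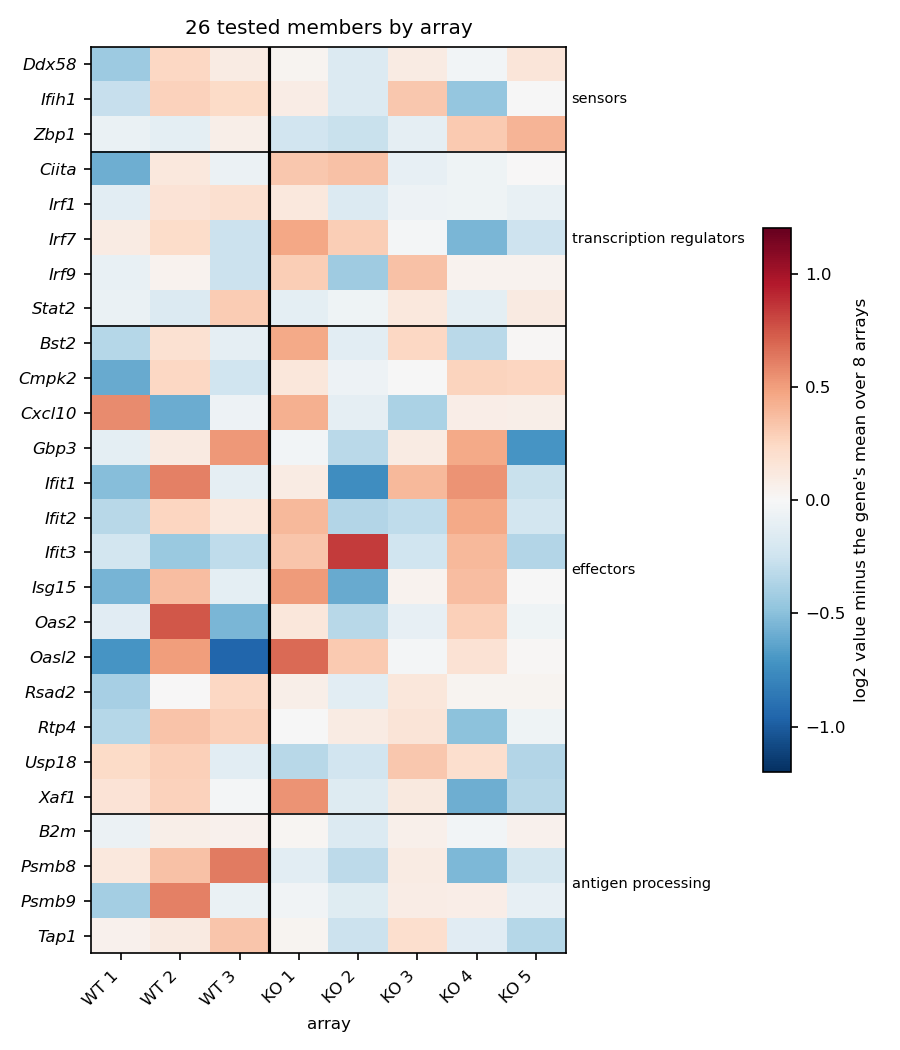
Colour gives the log2 value of each tested member minus its mean over the 8 arrays, with arrays in columns and genes in rows grouped by role. WT replicate 1 and KO replicate 2 are mostly blue (6 and 5 of 26 members above their mean), WT replicate 2 and KO replicate 1 mostly red (22 and 19).

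Macrophage markers ranked these arrays in part alike. The mean of 12 macrophage markers, on the same relative scale, was -0.23, 0.50 and 0.06 in the 3 WT arrays in replicate order. It was 0.30, -0.54, -0.13, 0.03 and 0.02 in the KO-labelled arrays. All 12 were above the dim limit, with a summed level of 9.38 to 10.1 log2 in WT and 8.98 to 9.84 in the KO-labelled arrays, and their part in the members' pattern was not tested. Of the markers with a probe set, 6 of 9 for T and NK cells, 4 of 5 for B cells, 4 of 6 for conventional and 3 of 4 for plasmacytoid dendritic cells were above the dim limit, with Cd3d, Ncr1, Ms4a1 and Flt3 among those below it. The mean of the 4 B cell markers was 0.04, 0.22 and 0.22 in WT and 0.01, 0.05, -0.37, -0.03 and -0.14 in the KO-labelled arrays, in replicate order. That of the 6 T and NK cell markers was -0.21, 0.19 and -0.01 in WT. In the KO-labelled arrays it was -0.11, -0.18, -0.21, 0.20 and 0.32. Skeletal muscle markers (7 genes, all above the limit) had the widest spread of the marker lists, from 1.68 in WT replicate 1 to -2.06 in KO replicate 2, with a median difference of -0.64. The part of these lists in the members' pattern was not tested either. By role, the effectors' mean ran from -0.24 in WT replicate 1 to 0.24 in KO replicate 1. That of the antigen processing genes ran from -0.22 in KO replicate 2 to 0.28 in WT replicate 2. KO replicate 1 stood at 0.22 for the transcription regulators, and at -0.03 for both the sensors and the antigen processing genes. With WT replicate 2 and KO replicate 1 left out, the members' median difference was 0.04.

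**Figure D4:**
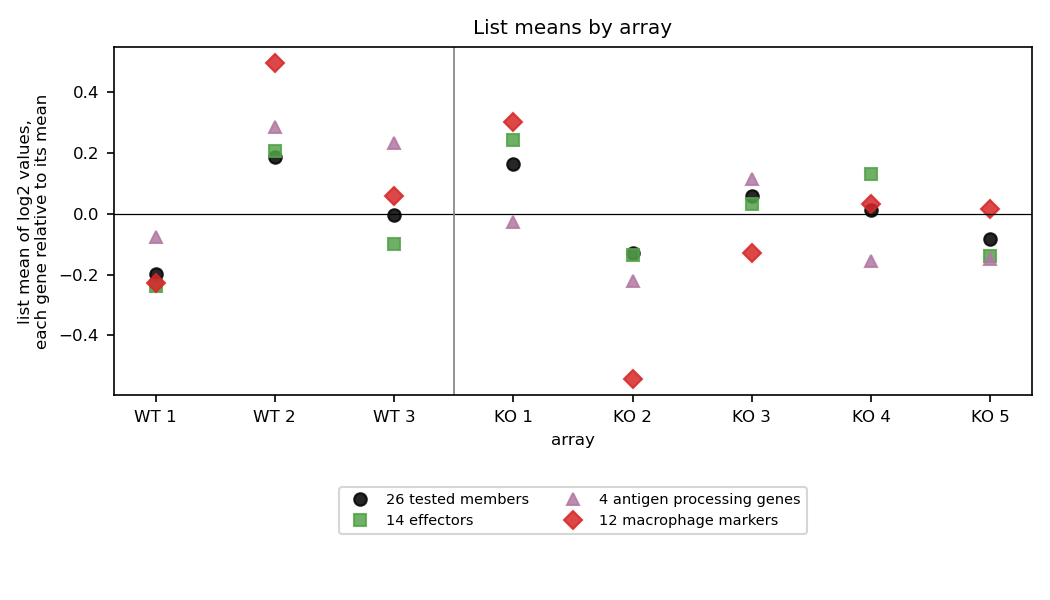
Symbols are list means of log2 values, each gene relative to its mean over the 8 arrays, for the 26 members, the 14 effectors, the 4 antigen processing genes and 12 macrophage markers. WT replicate 2 and KO replicate 1 are highest for the members (0.19 and 0.16) and for the macrophage markers (0.50 and 0.30).

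Members varied together to a modest degree, unequal between roles, once each group's mean was subtracted. Over the 8 arrays the median Pearson r of the 325 pairs of members was 0.26, and 68.6% of pairs were above 0. The median over all pairs of tested genes was 0.01. Within roles the median was 0.15 for effectors (91 pairs) and 0.09 for transcription regulators (10 pairs). For sensors it was 0.22 (3 pairs) and for antigen processing genes 0.48 (6 pairs). The points share arrays and their normalization, so r is given as a description. Without WT replicate 1 the median over members was 0.15, and without KO replicate 4 it was 0.33. The genes most like the mean of the other 25 members were Isg15 (r = 0.87), Irf1 (0.86), Psmb9 (0.79), Bst2 (0.75), Ifit1 (0.75) and Ddx58 (0.72). Cxcl10 (-0.54), Ifit3 (-0.32), Zbp1 (-0.27) and Stat2 (-0.25) went against it. Isg15 read close to the dim limit in WT replicate 1 (2.84) and KO replicate 2 (2.80), the lowest arrays in the members' mean. Tested members with an ISRE match had a median r of 0.58 (11 genes), and so did those without one (0.58, 10 genes). Cxcl10, Ifit3 and Stat2 are in the first of these sets.

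**Figure D5:**
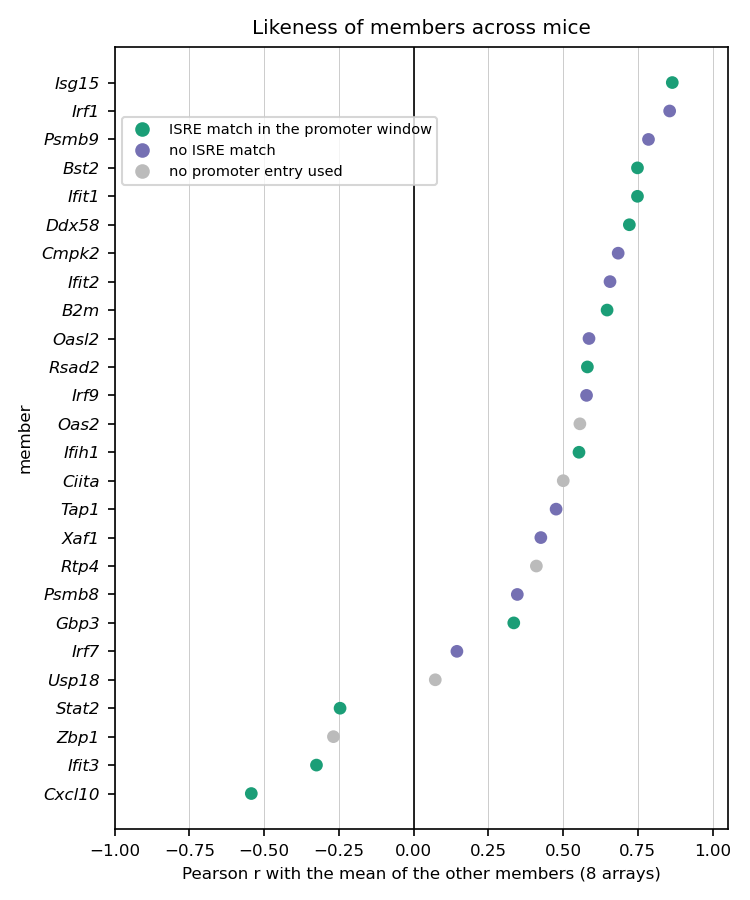
Points give the Pearson r of each tested member with the mean of the other members over 8 arrays, group means subtracted, coloured by whether a RefSeq promoter window holds an ISRE match. Values run from -0.54 for Cxcl10 to 0.87 for Isg15, and genes with and without a match both lie above 0.5.

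Other genes of the same pathway gave no call either. Of 109 further genes listed, 94 had a probe set and 82 were tested. With limma 0 of the 82 passed the adjusted threshold. An unadjusted p under 0.05 was found for 3 (3.66%), all lower in the KO-labelled arrays, where 4.22% of all genes had one in either direction and 1.91% on the lower side. Irf2, a repressor that competes with IRF1 for its sites, read 7.38, 7.07 and 7.24 in WT and 7.04, 6.67, 6.89, 6.67 and 6.88 in the KO-labelled arrays, a difference of -0.40 (-0.69 to -0.11). It was the only one of the 82 without overlap of the groups, against 2.95% of all genes. Tapbpl, a peptide editor of MHC class I, differed by -0.50 (-0.89 to -0.11) and the chemokine gene Cxcl9 by -0.31 (-0.59 to -0.02). On the higher side the lowest p belonged to Mavs, the mitochondrial adaptor of the RNA sensors (0.27, -0.04 to 0.59), the antibody receptor Trim21 (0.26, -0.06 to 0.58) and Ifna4 (0.42, -0.11 to 0.94). The interferon alpha genes are near copies of each other, so the reading for Ifna4 is uncertain. Ifnb1 and Ifng, the genes of interferon beta and gamma, were below the dim limit in all 8 arrays (1.72 to 2.13 and 1.89 to 2.44).

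By role, 6 of 9 tested receptor and kinase genes were higher in the KO-labelled arrays (median 0.04), 2 of 4 interferons (0.13), 7 of 10 sensors, adaptors and factors such as Irf2 (0.09), 14 of 35 effectors (-0.04) and 10 of 24 antigen processing genes (-0.02). The median over all 82 was -0.01. After subtracting group means, their median r with the members' mean was 0.34, and 31.7% reached 0.5, beside 0.01 and 19.1% over all tested genes that are not members. Named after their values were seen, the MHC class II genes H2-Aa, H2-Ab1 and H2-Eb1 (r = 0.96, 0.89 and 0.87) and the third inducible proteasome subunit, Psmb10 (0.95), followed it closely. The other class II genes tested were further from it (H2-DMa 0.49, H2-Oa 0.49 and H2-Ob -0.23). The kinase Tbk1 (-0.83), the effector Oasl1 (-0.82) and the antigen processing genes Ifi30 (-0.72), Calr (-0.72) and Tapbpl (-0.68) went against it. Outside both lists the 10 tested genes most like the members' mean were Atg10 (r = 0.99), Stau2, Zfp964, Slc9a9, Prim2, Phkb, Pltp, Sphk2, Pitrm1 and Osbpl2 (0.95), each over 8 arrays. They are the top of a ranking of all tested genes outside both lists (14327 tested in all). So many genes ranked over 8 arrays can give r this high without a link, so the names are a description only.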

How the data were processed

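RNA of 8 brown fat samples was hybridised to 1-colour Affymetrix Mouse Gene 2.0 ST arrays. The authors deposited log2 values per probe set, made with RMA and the oligo package per the submitters' processing notes, while the design text per the labels names Affymetrix Expression Console. RMA's quantile normalization hides changes shared by most genes. Arrays have no read depth, so their number limits the precision. Array medians lay between 3.00 and 3.04. Of 41345 probe sets, 23521 carry 1 symbol, 1814 several and 16010 none in the platform annotation, and 23328 matched RefSeq (GRCm38.p6) by Entrez identifier. Genes above 2.67 log2 in at least 3 arrays were tested in R 4.3.3 by limma 3.58.1 with 1 group term, default eBayes and Benjamini-Hochberg adjustment, and the script was tested on simulated data. 95% confidence intervals are from limma and not adjusted. The members and lists were chosen with earlier results of these data known. Every array's value is given for the 6 members of lowest p and the 6 of widest range, and for others by role. The 3 pathway genes of lowest p per direction are named. Alternatives tried were a block for the replicate number, different dim filters, normalization, centring, trend with robust fitting, array weights, averaged probe sets and arrays left out. The dim limit over single values (2.88) was added after the data were seen.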

Additional observations from a re-analysis of the deposited data

How the results depend on the processing

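No member and no gene passed the adjusted threshold of limma under any of the 18 alternatives (0 genes in each). At an unadjusted p under 0.05 there were 1 to 3 members with 1 array left out (3 without WT replicate 2 or KO replicate 3, 2 without KO replicate 5 and 1 otherwise), 2 with array weights and 3 without WT replicate 2 and KO replicate 1. Over all genes there were 604 at an unadjusted p under 0.05, and 1019 with no filter on dim genes. The members' median difference ran from -0.10 without WT replicate 1 to 0.08 without WT replicate 2. The labels do not say that the replicate number marks a pair. Deviations of same-numbered arrays correlated at -0.24, -0.09 and 0.01. Over all pairs of a WT and a KO-labelled array the values ran from -0.24 to 0.37. With 3 WT arrays these values cannot decide whether same-numbered mice shared a litter, day or batch. With the replicate number as a block the members' median difference was -0.00, with 1 member and 482 genes at an unadjusted p under 0.05. The differences of Ifih1 (0.0030), Zbp1 (-0.16), Irf7 (0.23), Ifit1 (-0.082) and Xaf1 (0.031) changed sign. KO replicates 4 and 5 share their number with no WT array, so the block difference rests on the 3 WT arrays and KO replicates 1 to 3. In 12 of 26 members the difference kept its sign under each alternative that gave a value (17 for Oasl2 and 18 for the other members of these, Psmb8 among them). Array weights turned the sign of Irf7 (0.0052), Oas2 (0.076), Cxcl10 (-0.026) and Psmb9 (0.0010). Leaving out both arrays low in Angptl8 turned Oas2 (0.30), Cxcl10 (-0.34) and Psmb9 (0.23), and the difference of Ifit1 was -0.0078 with arrays centred and -0.018 after a further quantile normalization. With 1 array left out, differences ran from -0.25 to 0.31 for Ifit1, -0.20 to 0.097 for Ifit2, -0.17 to 0.10 for Irf7, -0.31 to 0.33 for Oas2, -0.23 to 0.35 for Cxcl10, -0.29 to 0.22 for Psmb9, -0.032 to 0.14 for Zbp1, -0.069 to 0.012 for B2m, -0.16 to 0.18 for Ddx58, -0.065 to 0.40 for Isg15, -0.10 to 0.22 for Rsad2 and -0.12 to 0.11 for Stat2. Without a change of sign they ran from 0.014 to 0.28 for Bst2, -0.38 to -0.095 for Xaf1, -0.37 to -0.031 for Rtp4, -0.42 to -0.10 for Gbp3, -0.23 to -0.068 for Irf1, 0.082 to 0.28 for Irf9, -0.33 to -0.13 for Usp18 and -0.30 to -0.019 for Ifih1. Apart from the block, whose difference leaves out KO replicates 4 and 5, the cause of these changes was not tested. The members' median r was 0.20 without subtracting group means. Oasl2 and Cxcl10 drop out where all 8 arrays must exceed the dim limit.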
